A study of Mus musculus with 6 samples.

Results

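Glycolysis turns glucose into pyruvate in the cytosol, and lactate dehydrogenase then reduces pyruvate to lactate. Its upper reactions spend ATP to phosphorylate and split the sugar, and its lower reactions return ATP and NADH. Several of its enzymes exist as isozymes from separate genes, and proliferating epithelial cells and carcinomas typically use the forms studied here. The mRNAs of these enzymes are among the more abundant of a cultured cell, and many of the genes have processed pseudogenes, which are intronless copies of an mRNA elsewhere in the genome and share its sequence.

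The glycolytic enzymes were taken as 10 genes named by symbol: *Hk2*, *Gpi1*, *Pfkp*, *Aldoa*, *Tpi1*, *Gapdh*, *Pgk1*, *Eno1*, *Pkm* and *Ldha*. The rule that picks them uses names and no measured value, though members were chosen with earlier results of these data known. All 10 were found among the 23698 rows of each file, 9 under their own name and *Eno1* in a row that also held *Eno1b*, a retrogene copy. All 10 were also among the 9863 genes that passed the filters, which asked for RNA-seq RPKM above 1 in both libraries, a mean normalised count above 25 over the 3 libraries, and a footprint on a counted coding sequence (CDS). RPKM is the count per kilobase of counted length and per 1000000 exon counts of the library.

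The study set out to map UTR isoforms of mouse epidermal cells and to relate them to translation. The cells measured here, SCCc, are keratinocytes grown in culture from back skin of newborn mice, with the genotype HrasG12V; Tgfbr2 fl/fl KO, at passage 10 to 15. They express an activated Ras and lack the type II TGF-beta receptor, and the study's methods describe them as a cell line made earlier, so they stand for a single culture model and not for a tumour. The files used here held 1 ribosome profiling library, which sequences the RNA fragments that ribosomes protect, and 2 RNA-seq libraries of total mRNA from the same genotype. Nothing in the sources says whether the RNA-seq replicates came from separate cultures, so their spread may be technical. Long-read samples of SCCc, of wild-type keratinocytes and of P60 EpSC were not analysed here, so the files used here held no second condition to compare with. Levels below are therefore given as a description, with no test.

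Footprints on CDS came to 43305 for the 10 genes together in ribosome profiling. RNA-seq counts on exons came to 71268 in replicate 1 and 102001 in replicate 2. The 10 genes took 1.35% of all footprints on CDS (Wilson 95% interval 1.34% to 1.37%). They took 0.666% of the RNA-seq exon counts in replicate 1 (0.661% to 0.670%) and 0.728% in replicate 2 (0.724% to 0.733%). The share of footprints was thus above the share of RNA in either replicate, by 0.96 on the log2 scale against their mean of 0.697% ± 0.0444 (SD, n = 2). Counted on the CDS as the footprints are, the RNA-seq shares were 0.766% and 0.827%. *Gapdh* alone held 52.4% of the footprints on CDS of the 10 genes, against 31.6% and 31.8% of their RNA-seq exon counts and 38.0% and 37.9% of their RNA-seq counts on CDS. These intervals cover counting error only, since the reads carried no reported molecular identifiers.

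The cells carried the keratinocyte markers of their label. All 6 basal keratinocyte markers passed RNA-seq RPKM of 1 in both replicates, with a summed RPKM of 14347 and 16466, led by *Krt5*, a basal keratin, at 7965 and 9483. Of the 6 fibroblast and feeder markers, 4 were above 1 in both replicates, with a sum of 9.93 and 15.5 led by *Col3a1* at 3.89 and 5.49. The immune markers summed to 3.75 and 11.97, with 1 of 4 above 1 in both replicates, *Lyz2* in the lead at 2.71 and 8.56, and *Cd3e* at 0. Melanocyte markers, 1 of 4 above 1, summed to 5.38 and 5.47 with *Pmel* in the lead, and the endothelial markers, 0 of 2 above 1, summed to 0.160 and 0.270. The lists of other cell types were thus far below the keratinocyte list, and the sum of each list, the keratinocyte one included, was higher in replicate 2. Single markers did not all follow, since *Trp63*, *Itga6*, *Dcn*, *Tyr* and *Mlana* were lower there. Footprints on CDS came to 10 for the fibroblast and feeder markers, 2 for melanocyte, 0 for immune and 0 for endothelial markers. The fibroblast and feeder list thus took 0.00031% of footprints, against 0.0048% and 0.0077% of RNA-seq exon counts. The keratinocyte list took 1.82%, against 3.44% and 3.89%. Whether the mix of cells differed between the library types was not tested, which limits every ratio of footprints to RNA below.

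The glycolytic enzymes were also higher in RNA-seq replicate 2. RPKM was higher there for 10 of 10, against 47.3% of all genes that passed. The log2 ratio of replicate 2 to replicate 1 lay between 0.04 for *Pgk1* and 0.34 for *Eno1*, with a median of 0.12, while all genes had a median of -0.01 and an SD of 0.20. For 7 of the 10 genes the 95% counting interval of this ratio lay above 0, against 15.5% of the 9863 genes that passed, a share that also depends on how many counts each gene has. The exceptions were *Hk2*, *Pfkp* and *Pgk1*. What part the other cell types' markers or the depth had in this shift was not tested. The shift was small beside the 74.0-fold range of RNA among the enzymes described next. It was not small beside the gaps between some neighbours, such as *Tpi1* over *Ldha* at 1.08-fold and *Pfkp* over *Hk2* at 1.09-fold.

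Hexokinase 2, encoded by *Hk2* (chr6:82725025-82774454, minus strand, build GRCm38), phosphorylates glucose as it enters the cell and traps it there. Its RNA was at 30.6 RPKM in replicate 1 and 31.8 in replicate 2, and its CDS carried 621 footprints, or 63.6 RPKM (95% counting interval 58.7 to 68.8). Glucose phosphate isomerase, *Gpi1* (chr7:34201330-34230336, minus strand), converts the product to its fructose isomer. It stood higher, at 181 and 205 RPKM of RNA and 314 RPKM of footprints (300.0 to 329). Platelet-type phosphofructokinase, *Pfkp* (chr13:6579768-6648777, minus strand), adds a further phosphate in the step that commits the sugar to glycolysis. *Pfkp* RNA was at 33.3 and 34.7 RPKM, and its footprints were at 54.8 RPKM (50.1 to 59.9). The reactions of both kinases are irreversible in the cell and serve as points of control. The genes *Hk2* and *Pfkp* were thus far below *Gpi1*, the isomerase between them, in RNA and in footprints. This holds for these genes and not for the kinase steps, since their isozymes *Hk1* and *Pfkl*, described below, had more RNA than they did.

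Aldolase A, *Aldoa* (chr7:126795234-126800751, minus strand), splits the sugar bisphosphate into a pair of trioses. Its RNA reached 870 RPKM in replicate 1 and 950.0 in replicate 2, and its footprints 1252 RPKM (1220 to 1286). Triose phosphate isomerase, *Tpi1* (chr6:124810586-124814296, minus strand), interconverts the trioses, and had 503 and 540 RPKM of RNA and 876 RPKM of footprints (844 to 910). Glyceraldehyde phosphate dehydrogenase, *Gapdh* (chr6:125161715-125166467, minus strand), oxidises the triose and makes NADH. *Gapdh* was the highest of the 10 by every library, with 1405 and 1550 RPKM of RNA and 6037 RPKM of footprints (5959 to 6117) from 22695 footprints. In RNA it exceeded *Aldoa*, the next gene, by 1.62-fold, and in footprints it exceeded *Pkm*, the next gene there, by 3.803-fold.

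Phosphoglycerate kinase 1, *Pgk1* (chrX:106187100-106203699, plus strand), makes the first ATP of the lower pathway. The level of its RNA was 154 RPKM in replicate 1 and 158 in replicate 2, and its footprints were at 976 RPKM (913 to 1044). Enolase 1 dehydrates phosphoglycerate to phosphoenolpyruvate, and *Eno1* (chr4:150236721-150248879, plus strand) was measured together with *Eno1b*. That joint row had the lowest RNA of the 10, at 17.7 and 22.3 RPKM, and yet 1869 footprints, or 320 RPKM (306 to 335). The *Eno1* row moved from place 10 of the 10 in RNA to place 7 in footprints, and the others moved by at most 2 places.

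Pyruvate kinase of muscle type, *Pkm* (chr9:59656368-59679375, plus strand), makes the final ATP and pyruvate, and its gene gives the M1 and M2 isoforms by a choice of exons that gene counts cannot separate. Its RNA was at 608 and 654 RPKM and its footprints at 1587 RPKM (1538 to 1638). Lactate dehydrogenase A, *Ldha* (chr7:46841475-46855627, plus strand), reduces pyruvate and restores NAD. It had 459 and 510.2 RPKM of RNA and 1429 RPKM of footprints (1375 to 1484). Both enzymes at the end of the pathway were thus among the higher members on either scale.

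Ordered by mean RNA-seq RPKM, the genes ran *Gapdh*, *Aldoa*, *Pkm*, *Tpi1*, *Ldha*, *Gpi1*, *Pgk1*, *Pfkp*, *Hk2* and *Eno1*. The replicate ranges of *Tpi1* and *Ldha* overlapped, and those of no other neighbours did. By footprint RPKM the order was *Gapdh*, *Pkm*, *Ldha*, *Aldoa*, *Pgk1*, *Tpi1*, *Eno1*, *Gpi1*, *Hk2* and *Pfkp*, where the counting intervals of *Eno1* and *Gpi1* overlapped, as did those of *Hk2* and *Pfkp*. From the highest to the lowest gene the range was 74.0-fold in RNA and 110.1-fold in footprints. Against all genes that passed, with a median of 15.3 RPKM of RNA and 19.1 RPKM of footprints, the glycolytic enzymes had medians of 339 and 926. The lowest percentile of any of them was 58.7 in RNA, for the *Eno1* row, and 74.9 in footprints, for *Pfkp*. *Hk2* stood at percentile 73.0 in RNA and 77.7 in footprints, and *Gapdh* at 99.7 and 99.9.

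**Figure D1:**
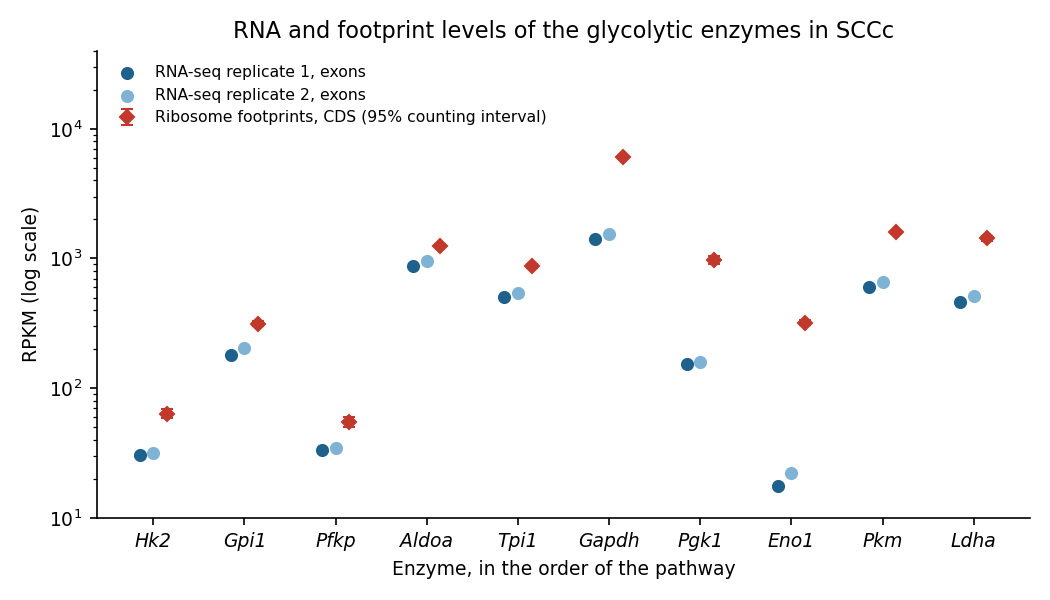
RNA-seq RPKM on exons in both replicates and footprint RPKM on the CDS with its 95% counting interval, on a log axis, for the 10 enzymes in pathway order. *Gapdh* is highest on both scales, and the footprint point of *Eno1* lies far above its RNA points.

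Translational efficiency (TE) was taken as the log2 ratio of footprint RPKM on the CDS to the mean RNA-seq RPKM on exons, relative to the median of all 9863 genes. The median log2 TE of the 10 enzymes was 0.84 ± 0.07 (SD over the 2 RNA-seq replicates). Of the 10, 4 were above 1 (*Eno1*, *Pgk1*, *Gapdh* and *Ldha*) against 20.8% of all genes, and 0 were below -1 against 21.1% of all genes. All 10 were above 0, but when each library had to hold 100 counts or more of a gene, which raises the median gene, *Gpi1*, *Pfkp* and *Aldoa* fell below it, at -0.03, -0.05 and -0.27, and *Ldha*, at 0.82, was no longer above 1. Without centring on the median gene, 10 of 10 were above 1 with edgeR's TMM factors, as were 46.5% of all genes, and 10 of 10 with DESeq2's size factors, as were 49.1%. The median gene then stood at 0.91 and 0.98, so the count above 1 depends on the centring.

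TE was higher in the 5 enzymes from *Gapdh* on than in the 5 before them. In the upper part, *Hk2* had a log2 TE of 0.68 ± 0.05, *Gpi1* 0.36 ± 0.14, *Pfkp* 0.35 ± 0.05, *Aldoa* 0.12 ± 0.10 and *Tpi1* 0.41 ± 0.08 (SD over the 2 RNA-seq replicates throughout). From *Gapdh* on, the values were 1.69 ± 0.11 for *Gapdh*, 2.30 ± 0.04 for *Pgk1*, 3.66 ± 0.25 for *Eno1*, 0.99 ± 0.09 for *Pkm* and 1.22 ± 0.12 for *Ldha*. The lowest of the lower group, *Pkm*, thus lay above *Hk2*, the highest of the upper group. *Pkm* lay just under the limit of 1, and was at 1.04 with RNA-seq replicate 1 alone. Within all genes that passed, *Aldoa* stood at percentile 54.2, *Pkm* at 78.9, *Gapdh* at 90.4, *Pgk1* at 95.3 and *Eno1* at 98.8. The grouping by reaction was read after the values were seen, and the 5 lower enzymes are also those with the most coding sequence shared with other genes, as given below, with 3 of them, *Pgk1*, *Pkm* and *Ldha*, counted over less than 80% of their longest single CDS against 0 of the upper 5. Position in the pathway and these properties cannot be told apart here.

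RNA-seq counted over the CDS in place of the exons changed these values in both directions, with 6 genes higher and 4 lower. *Pgk1* moved furthest, to 3.16. *Eno1* reached 4.17, *Pkm* 1.41 and *Hk2* 0.99, while *Pfkp* came to 0.03 and *Gpi1* to 0.14. *Gapdh*, at 1.59, and *Ldha*, at 1.09, stayed above 1, so that *Pkm* joined the 4 genes above that limit. *Aldoa*, at 0.13, moved least, and *Tpi1* came to 0.53.

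**Figure D2:**
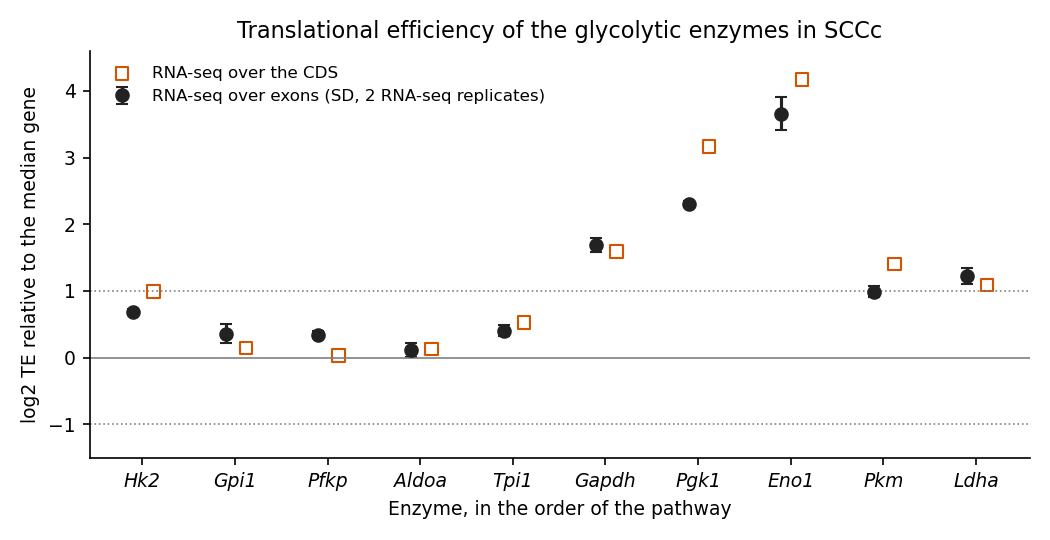
log2 TE of each enzyme relative to the median gene, with RNA-seq over exons (filled points, bars are the SD over the 2 RNA-seq replicates) and over the CDS (open squares); dotted lines mark -1 and 1. *Pgk1* and *Eno1* lie highest by either measure.

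How much of each CDS was counted differed widely among the enzymes. The files give the number of CDS positions counted for each row, and it was set against the CDS positions of the same names in the GENCODE M21 annotation of GRCm38, which may not be the release the authors used. *Hk2* was counted over 2751 of 2751 nt, *Tpi1* over 897 of 897, *Gapdh* over 1059 of 1077, *Gpi1* over 1674 of 1710 and *Pfkp* over 2505 of 2629. Those 5 genes were counted nearly in full. *Ldha* was counted over 524 of 1083 nt (48.4%), *Pkm* over 704 of 1761 (40.0%) and *Pgk1* over 251 of 1260 (19.9%). For these 3 genes most of the annotated CDS did not enter the values above.

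The remaining rows each meet more than 1 annotated gene. *Aldoa* names 2 genes of the annotation, with 1726 nt of CDS together, of which 1233 nt (71.4%) were counted, and its longest single CDS has 1254 nt. The row of *Eno1* and *Eno1b* was counted over 1646 nt of the 2699 nt (61.0%) that both genes hold. In all, 5 of 10 enzymes were counted over less than 80% of the annotated CDS, against 10.9% of the genes that passed and had an annotated CDS. *Aldoa* and the *Eno1* row are among these 5 through the sum over 2 genes, and against the longest single CDS 3 of 10 were below 80%, *Pgk1*, *Pkm* and *Ldha*. The share of all genes below 80% of their longest single CDS is not given here, so this second count has no background. The median share of annotated CDS counted was 83.4% for the enzymes and 99.2% for the genes that passed. The enzyme median takes *Aldoa* and the *Eno1* row over the sum of 2 genes. Against their longest single CDS these rows stood at 98.3% and 126%.

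Sequence shared with other genes was measured on the longest complete CDS of each enzyme, as the share of its windows of 30 nt, about the length of a footprint, that also occur in an annotated transcript of another gene on either strand. No window of *Hk2* or *Pfkp* was shared. The share was 33.1% for *Tpi1*, 43.0% for *Aldoa*, 58.1% for *Gpi1*, 58.8% for *Ldha*, 79.8% for *Pkm*, 89.9% for *Eno1*, 94.3% for *Gapdh* and 100% for *Pgk1*. A single gene, Gm5537, held all 1222 windows of *Pgk1*, and Gm7336 held all 988 shared windows of *Gapdh*. *Gapdh* windows were found in 340 other genes, against 28 for *Ldha*, 16 for *Pkm*, 7 for *Pgk1* and 2 for *Gpi1*. Only annotated transcripts were searched, so copies outside the annotation are not in these shares.

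The following 30 nt stretches of CDS show both cases, each 5′ to 3′ on the coding strand, in a coding exon, with a start codon in capitals where the stretch begins the CDS. For *Gapdh* and *Pkm* they were the first window with the most other genes, leaving out every window with a copy on 1 chromosome excluded from printing, so that windows with up to 134 other genes for *Gapdh* and 6 for *Pkm* were passed over, and for *Hk2* and *Pfkp*, which have no shared window, the first window of the CDS. The *Gapdh* stretch (chr6:125163333-125163362, minus strand, CDS positions 176 to 205 of Gapdh-202) occurs in 116 other genes and that of *Pkm* (chr9:59669015-59669044, plus strand, positions 481 to 510 of Pkm-201) in 5. The stretches of *Hk2* (chr6:82773951-82773980, minus strand, positions 1 to 30 of Hk2-201) and *Pfkp* (chr13:6648650-6648679, minus strand, positions 1 to 30 of Pfkp-201) occur in 0 other genes.
*Gapdh*: accccttcattgacctcaactacatggtct
*Pkm*: tacaagaacatctgcaaggtggtggaggtg
*Hk2*: ATGatcgcctcgcatatgatcgcctgctta
*Pfkp*: ATGagtgacttggattcttcgagctccagc

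Counted share and shared sequence did not run together in every enzyme. *Pgk1*, with the highest share of shared windows, had the lowest counted share, and *Hk2* and *Pfkp*, with none, were counted nearly in full. *Gapdh* departed from this, with 94.3% of its windows shared and 98.3% of its annotated CDS counted. *Gpi1* was likewise counted over 97.9% with 58.1% of its windows shared, and *Tpi1* over 100% with 33.1%. Reads of genes with such copies may be divided between them or lost, so the levels of the 8 enzymes with shared windows, all but *Hk2* and *Pfkp*, are uncertain to a degree that these files do not show.

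The TE of the enzymes on either side of the 80% limit overlapped. The 5 genes counted over less than 80% of the CDS under their names, *Aldoa* and *Eno1* included, had log2 TE from 0.12 to 3.66 with a median of 1.22, and the 5 others from 0.35 to 1.69 with a median of 0.41. Among all genes that passed, the 1028 below the limit had a median of 0.63 (SD 1.86 across genes) and the 8424 others a median of -0.06 (SD 1.37). What part the counted length had in the TE of the enzymes was not tested. With only genes counted over at least 80% kept, an alternative chosen after seeing the data, 1 of the 5 enzymes left was above 1, *Gapdh*, and their median was 0.46. The share of all genes above 1 within this set is not given here. It was 20.8% over all 9863 genes in the main setting, which 1 of 5 does not set apart. Without the row that joins *Eno1* and *Eno1b*, also chosen after seeing the data, the median of the 9 others was 0.68.

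**Figure D3:**
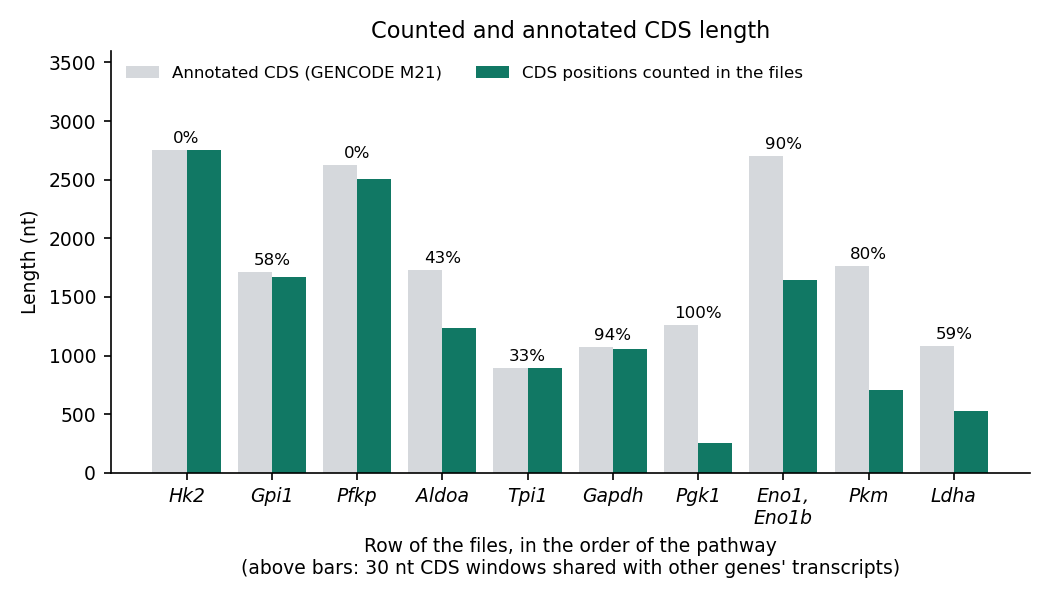
Annotated CDS length (grey, GENCODE M21) and CDS positions counted in the files (green) in nt for the rows of the 10 enzymes, with the share of 30 nt CDS windows that occur in transcripts of other genes above the bars. *Pgk1*, *Pkm* and *Ldha* are counted over the smaller part of the annotated CDS, and *Gapdh* nearly in full.

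Relative to the CDS, the 3′UTR held fewer footprints than RNA. On the 3′UTR, where ribosomes that have terminated are rarely found, the enzymes had between 0.0139% (*Eno1*) and 3.39% (*Hk2*) of their exon footprints, while RNA-seq had between 4.07% (*Aldoa*, replicate 2) and 49.2% (*Pgk1*, replicate 1) of its exon counts there. In each of the 10 enzymes the footprint density on the 3′UTR, per counted nt and relative to the CDS, was below that of RNA in both replicates, as it was in 94.7% of the 9674 genes with RNA-seq counts on both regions. *Gapdh* had the highest such ratio of footprints, -3.25 on the log2 scale, from 412 footprints on 183 nt. *Pgk1* stood out in RNA, since only 39 nt of its 3′UTR were counted and these held 311 of 631 exon counts in replicate 1 and 404 of 850 in replicate 2. Per counted nt its 3′UTR thus held more RNA than its CDS by 2.87 and 2.76 on the log2 scale, which enters the TE computed from exons and not the one computed from the CDS.

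On the 5′UTR, which the ribosome scans before the start codon, 7 of the 10 enzymes had at least 60 counted nt and 30 footprints. In 0 of these 7 was the footprint density on the 5′UTR above that of the CDS, against 24.8% of the 1092 genes with the same minimum. The minimum acts on the 5′UTR footprints themselves, so genes with few footprints pass it mainly where their 5′UTR is dense. The enzymes had a median of 926 RPKM of footprints, against 19.1 for all genes that passed. The 24.8% is therefore not a like background, and nothing is concluded from the difference. The log2 ratio of 5′UTR to CDS density was -0.81 in *Hk2*, -1.06 in *Pkm*, -1.46 in *Eno1*, -2.08 in *Gpi1*, -2.48 in *Gapdh*, -3.16 in *Aldoa* and -3.68 in *Ldha*. *Hk2* and *Pkm* thus had the highest relative density before the start codon, with 61.1 footprints on 474 nt and 795 on 295 nt. In *Pkm* these were 16.7% of its exon footprints, while the same 295 nt held 20.7% and 18.6% of its RNA-seq counts. *Pgk1* had 24.9 footprints on 94 nt and *Pfkp* 2.80 on 92 nt, under the minimum, and *Tpi1* had 0 on the 24 nt counted.

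*Gapdh* differed from the other enzymes on the 5′UTR. Its 236 counted nt held 906 footprints but only 0.733 counts in the first RNA-seq library and 3.23 in the other, where counts need not be whole. That is 3.73% of its exon footprints against 0.00326% and 0.00994% of its RNA-seq exon counts. In the other 8 enzymes with counts there, RNA on the 5′UTR made up between 0.957% (*Pfkp*) and 20.7% (*Pkm*) of the exon counts in replicate 1. The trait was not confined to *Gapdh* outside these enzymes. *Bsg*, from the carriers and regulators described below and named after its values were seen, had 56.3 footprints on its 5′UTR against 0 and 0.109 RNA-seq counts. The share of all genes with such a 5′UTR is not given here. The positions of these footprints within the 5′UTR are not part of the files.

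**Figure D4:**
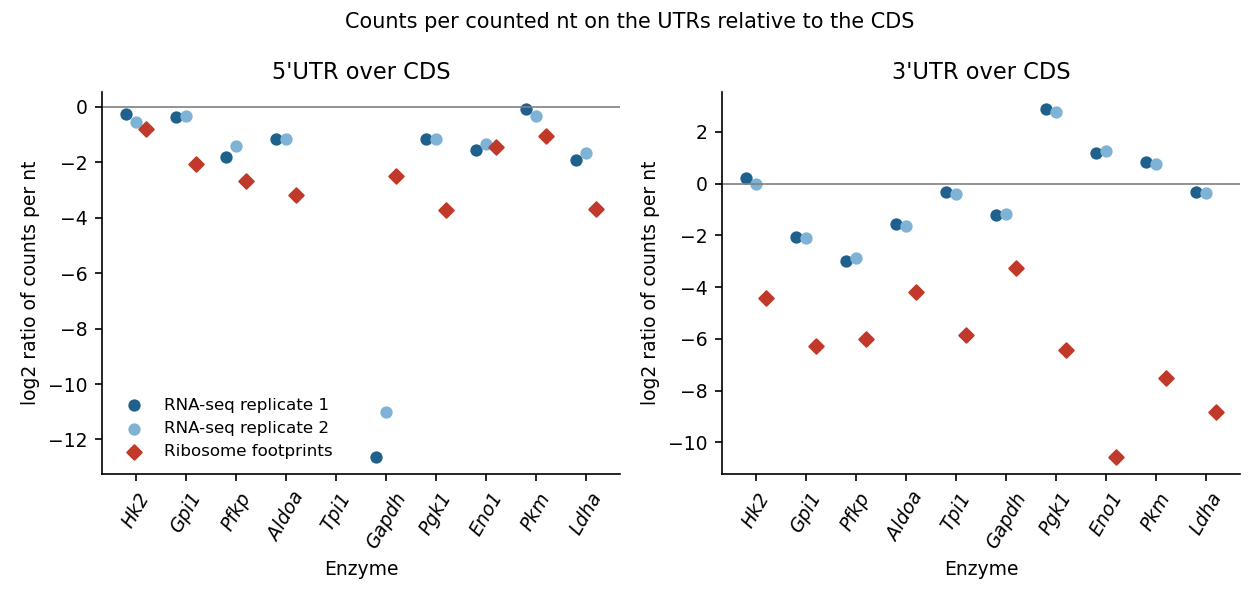
log2 ratio of counts per counted nt on the 5′UTR (left) and 3′UTR (right) to those on the CDS, for footprints and both RNA-seq replicates. Footprints on the 3′UTR lie below RNA in each enzyme, RNA on the 5′UTR of *Gapdh* lies far below the rest, and *Tpi1* has no 5′UTR points because it had 0 counts there.

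The isozymes of each reaction separated into steps with a single dominant gene and steps with several. Of 19 other isozyme genes, all listed in the files, 9 had RNA-seq RPKM above 1 in both replicates and 7 passed all filters, with a median log2 TE of -0.27. Above 1 were 2 of these 7, *Pgam1* and *Eno3*, against 20.8% of all genes, and below -1 were 3, *Pfkm*, *Ldhd* and *Pgam2*, against 21.1%, where *Eno3* and *Ldhd* are named after their values were seen. Hexokinase and phosphofructokinase RNA came from more than 1 gene. *Hk1*, a hexokinase present in most tissues, stood at 46.3 and 47.9 RPKM, above *Hk2*, with a log2 ratio of *Hk2* to *Hk1* of -0.60 in replicate 1 and -0.59 in replicate 2. In footprints, *Hk1* was at 55.1 RPKM (50.7 to 59.9), an interval that overlaps that of *Hk2*. The liver-type phosphofructokinase *Pfkl* was above *Pfkp* in RNA, at 65.7 and 75.4 RPKM, and in footprints, at 74.3 RPKM (68.6 to 80.4). The muscle-type *Pfkm* was below *Pfkp*, at 14.9 and 17.4 RPKM of RNA and 6.76 RPKM of footprints (5.11 to 8.78), so that RNA of all 3 phosphofructokinase genes was detected.

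Among the aldolases, phosphoglycerate kinases, pyruvate kinases and lactate dehydrogenases, 1 gene lay far above its isozymes. Among the enolases the gap in RNA was smaller. *Aldoa* exceeded *Aldoc*, the aldolase of brain, by 8.73 and 8.18 on the log2 scale of RNA RPKM, with 37.2 and 77.9 counts of *Aldoc*. *Eno1* with *Eno1b* exceeded *Eno2*, the neuronal enolase, by 5.80 and 5.37, and *Eno2* had 0 footprints, so the footprint ratio was at least 493-fold (floor of 3 counts). The muscle enolase *Eno3*, named after its values were seen, was closer, with 5.84 and 5.13 RPKM of RNA and 16.4 RPKM of footprints. Of the CDS windows of *Eno1*, 89.9% were shared with other genes, against 0% for *Eno2* and *Eno3*. Reads of *Eno1* may be divided or lost, and what part this had in the smaller RNA gap was not tested. *Aldoa*, *Pgk1*, *Pkm* and *Ldha* also had shared windows, from 43.0% to 100%, and their RNA gaps were large. *Ldhb*, the form of heart muscle, had 1 RNA-seq count over both replicates, which puts *Ldha* 15551-fold above it with a counting interval of 2791 to 614214. *Ldhd*, which acts on the other stereoisomer of lactate, was nearer, at 8.55 and 10.1 RPKM of RNA. *Pklr*, the liver and red cell pyruvate kinase, and *Pgk2*, the testis form of phosphoglycerate kinase, had 0 RNA-seq counts, so *Pkm* was at least 14499-fold and *Pgk1* at least 2048-fold higher (floor of 3 counts over both replicates), or at least 8180-fold and 1092-fold counted over the CDS. *Pklr* nonetheless had 24.96 footprints on its CDS, or 4.13 RPKM (2.67 to 6.10), in the absence of any RNA-seq count.

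Phosphoglycerate mutase, which acts between *Pgk1* and *Eno1* and is not among the 10 genes, had a form with a short counted CDS and shared windows, as *Pgk1* did, and a form without. *Pgam1*, the broadly expressed form, was counted over 76 of 762 nt of CDS (9.97%), and 100% of its 30 nt windows occur in other genes. Its RNA was at 28.8 and 30.4 RPKM from 64.1 and 88.6 counts, while its CDS held 521 footprints, or 1933 RPKM, giving a log2 TE of 5.69 ± 0.07. The muscle form *Pgam2*, counted over 100% of its CDS with 0 shared windows, had 6.77 and 8.03 RPKM of RNA and 1 footprint. *Pgam1* RNA was thus above *Pgam2* by 2.09 and 1.92 on the log2 scale, and by 3.10 and 3.05 when counted over the CDS, which puts the log2 TE of *Pgam1* at 4.91. *Pgam1* had the highest log2 TE of the isozymes that passed and *Pgam2* the lowest, at -4.66 on that 1 footprint.

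Glucose enters and lactate leaves the cell through carriers, and a further set of proteins tunes the flow through glycolysis. Of 17 such genes, 16 were matched by symbol and 13 passed the filters, with a median log2 TE of 0.24. Above 1 were 3 of the 13, *Slc16a1*, *Pfkfb1* and *Pfkfb4*, and below -1 were 2, *Pfkfb3* and *Pdk2*, near the 20.8% and 21.1% of all genes, all but *Slc16a1* named after their values were seen. *Slc2a1*, the glucose carrier of keratinocytes, had 230.5 and 274 RPKM of RNA and a log2 TE of -0.42 ± 0.19. *Slc16a1*, a lactate carrier, had only 13.3 and 12.1 RPKM of RNA but the highest log2 TE of the list, 2.55 ± 0.08, and *Slc16a3*, the carrier typical of glycolytic cells, had 0.74 ± 0.33. *Hif1a*, a transcription factor that induces many glycolytic genes, was at -0.53 ± 0.10, and *Pdk1*, a kinase that inhibits pyruvate dehydrogenase, was at -0.60 ± 0.03. *Pfkfb2*, which sets the level of an activator of phosphofructokinase, was at 0.52 ± 0.06. The carriers and regulators thus lay on both sides of the median gene.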

How the data were processed

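The authors trimmed reads with Trim Galore, removed rRNA, mitochondrial and tRNA sequences from ribosome profiling reads with Bowtie2 2.4.1, aligned to GRCm38 with STAR 2.6.1 and counted with Plastid. The annotation release behind these counts was not given in the sources used here, which name one only for long reads and CAGE. The deposited values are estimated counts, which need not be whole, for exons, CDS, 5′UTR and 3′UTR, with the counted length of each. The authors also deposited RPKM, whose library totals exceeded the exon counts, so RPKM was computed again from counts, lengths and the sum of exon counts (3549555 in ribosome profiling, 10707930 and 14003713 in RNA-seq). Counts were rounded only for DESeq2 1.42.0 size factors and edgeR 4.0.16 TMM factors (R 4.3.3); other steps used Python 3.11.15, numpy, pandas and scipy. Counting intervals are exact Poisson at 95%.

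Members and lists were chosen with earlier results of these data known. All 10 enzymes are named, with isozymes of fixed pairs and, of other lists, the 3 highest and 3 lowest by log2 TE where each library held 100 counts or more, of which 1 gene is not reported here; the minimum of 60 nt and 30 footprints on the 5′UTR was set after the values were seen. Each RNA-seq library was left out in turn, and RNA-seq over the CDS, 1 RPKM added as a pseudocount, values with no division by length, other filters and other scalings were tried.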

Additional observations from a re-analysis of the deposited data

How the results depend on the processing

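The median log2 TE of the glycolytic enzymes, 0.84 in the main setting, was above 0 in every alternative tried. It lay between 0.78 and 0.88 when either RNA-seq replicate was left out, and was 1.04 with RNA-seq over the CDS, 0.93 with counts not divided by length and 0.44 with at least 100 counts in every library. Without centring it was 1.74 with TMM and 1.81 with DESeq2 size factors, which leave the median gene above 0, and all 10 enzymes were then above 1. Among genes with at least 80% of the CDS counted it was 0.46 with 1 of 5 enzymes above 1, near the 20.8% of all genes in the main setting. Without the row of *Eno1* and *Eno1b* it was 0.68. Both alternatives were chosen after seeing the data. The number above 1 was otherwise 3 to 5, and 0 enzymes were below -1 in any alternative. The 10 enzymes took 1.31% of footprints on exons, and 0.797% of RNA-seq counts on CDS; leaving out a replicate gave 0.666% to 0.728% of exon counts. Of single enzymes, 10 of 10 kept their sign without either replicate, with RNA-seq over the CDS, the pseudocount and no division by length. With no filter 10 of 10 did, with the minimum of 100 counts 7 of 10, and with at least 80% counted 5 of 5. These last settings change only the median gene and move all enzymes alike, by -0.02, -0.39 and 0.06. Their sign counts therefore say nothing about the stability of single enzymes. *Pgam1* over *Pgam2* in RNA went from 2.00 to 3.08 with RNA-seq over the CDS. Where no construction of the alternative shows it, the cause was not tested. No paired analysis was possible because the files used here held 1 ribosome profiling library and no second condition. With 1 ribosome profiling library in the files used here, the spread of footprints between cultures was not measured.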

Other observations

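Pyruvate made by glycolysis enters the mitochondrion, where pyruvate dehydrogenase and the tricarboxylic acid (TCA) cycle oxidise it. All 22 genes of this list passed the filters, with a median log2 TE of 0.37, 3 above 1 and 0 below -1, against 20.8% and 21.1% of all genes that passed. Their median RNA-seq level was 77.5 RPKM, led by *Mdh2*, the mitochondrial malate dehydrogenase, at 322 and 338 RPKM in the replicates. The highest log2 TE belonged to *Suclg2*, a subunit of succinyl-CoA synthetase, at 2.12 ± 0.02 (SD over the 2 RNA-seq replicates), *Idh3a*, a subunit of isocitrate dehydrogenase, at 1.35 ± 0.10, and *Pdhx*, a structural part of the pyruvate dehydrogenase complex, at 1.21 ± 0.09. Among the lowest were *Idh3b* at -0.26 ± 0.06 and *Dld*, the shared dehydrogenase subunit, at -0.15 ± 0.14. Subunits of isocitrate dehydrogenase, which work in 1 complex, thus stood on both sides of the median gene.

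The pentose phosphate pathway branches off after hexokinase and supplies NADPH and ribose. All 7 of its genes passed, with a median log2 TE of 0.57, 1 above 1 and 0 below -1, against the same 20.8% and 21.1%. *Pgd*, the second dehydrogenase of the pathway, was highest at 1.00 ± 0.04, followed by *Rpe* at 0.87 ± 0.24, an order that turned with RNA-seq replicate 2 alone (0.97 and 1.05), and then *G6pdx*, which catalyses the entry step, at 0.62 ± 0.01. *Tkt*, transketolase, had the most RNA, at 315 and 339 RPKM, and a log2 TE of -0.39 ± 0.09. *Taldo1*, transaldolase, was at -0.32 ± 0.02 and *Pgls* at -0.52 ± 0.29.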
